A study of Mus musculus with 6 samples.

Results

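The miR-22 arms are the mature miRNAs miR-22-3p and miR-22-5p, which are cut from the same hairpin RNA. They were taken as the rows with the miRBase accessions MIMAT0000531 (miR-22-3p) and MIMAT0004629 (miR-22-5p), and both were present among the 707 mature miRNAs counted, so there are 2 members. The libraries are small RNA libraries from white adipose tissue (WAT) of male ApoE-deficient mice, 3 labelled control and 3 labelled CIH. CIH (chronic intermittent hypoxia) was applied for 8 weeks in gas-controlled cages, as repeated cycles between 21% and about 6% oxygen with 60 s for each fall and each recovery. ApoE deficiency, which removes the apolipoprotein that clears lipoproteins from blood, was shared by both groups, and no mice with intact ApoE were compared. The ages, the fat depot and whether each library came from a single mouse are not stated in the labels. The p-values for CIH against control therefore measure the spread between these libraries.

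A hairpin such as Mir22 is released from a longer transcript by Drosha and cut by Dicer into a short duplex of a 5p and a 3p strand. One strand is usually kept in an Argonaute protein and guides it to mRNAs through its seed, bases 2 to 8, while most copies of the other are degraded. The ratio of the arms therefore reports on strand selection and strand stability, whereas their common level also reflects transcription of the host gene. miR-22 has been studied in heart remodelling and as a regulator of lipid metabolism in liver and fat.

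The sequences are shown because reads were assigned to the arms by sequence, and because the arms carry different seeds. In the RefSeq hairpin (GRCm38.p6, chr11:75463716-75463810, plus strand) the capitals mark the 5p arm and then the 3p arm, and in the mature sequences they mark the seed:
Mir22 hairpin: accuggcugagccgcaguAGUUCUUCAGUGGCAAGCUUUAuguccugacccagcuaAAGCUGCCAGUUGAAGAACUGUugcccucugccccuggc
miR-22-5p: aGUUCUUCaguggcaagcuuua
miR-22-3p: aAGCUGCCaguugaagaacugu

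The hairpin is 95 bases long. miR-22-5p lies at chr11:75463734-75463755 and miR-22-3p at chr11:75463772-75463793. GENCODE release M21 on GRCm38 places the hairpin in exon 2 of the noncoding host gene Mir22hg (chr11:75461539-75466676) and in exon 2 of an annotated transcript of the overlapping protein-coding gene Tlcd2, on the same strand. In the fold predicted by RNAfold, at -41.9 kcal/mol, 19 base pairs join the 2 arms, each of which is 22 bases long. Of the 1738 mature miRNAs of the RefSeq table, 0 others have the seed of either arm. The longest run that miR-22-5p shares with any of the 1004 other hairpins of that table is 10 bases, and for miR-22-3p it is 9 bases. Neither row had the same counts in all 6 libraries as another row.

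The libraries held between 636963 and 4783768 counts, and control 2 was the deepest. Over the 633 miRNAs tested, log2 levels of control 1 and control 2 correlated with each other at 0.831 and with the other 4 libraries at 0.595 to 0.712. Control 3 and the CIH libraries correlated among themselves at 0.952 to 0.974. The miRNAs behind each of these correlations are not independent of one another. Control 1 and control 2 thus stood apart from control 3, which lay with the CIH libraries. Control 1 and control 2 had counts for 487 and 552 miRNAs, against 636 in control 3 and 631 to 649 in CIH. The cause of this split was not tested, and each comparison is given without single controls as well. Levels are in CPM, a count divided by its library total and put on a common scale, after TMM normalization, which corrects library totals for composition with factors between 0.575 and 1.45. Some miRNAs differed greatly across the split, such as MIMAT0004846, at 10.2 and 5.79 CPM in controls 1 and 2. In the other 4 libraries it was at 39393 to 60594 CPM. Others went the other way, such as MIMAT0003151, at 18203 and 21768 CPM against 493 to 3399 CPM. The labelled tissue was not checked against marker miRNAs, because the files do not pair the accessions with names.

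miR-22-3p was the abundant arm in every library. Its counts were 947, 16324 and 792 in controls 1, 2 and 3, and 879, 595 and 674 in CIH 1, 2 and 3. It ranked between 33 (control 2) and 91 (CIH 2) among the 707 miRNAs by count, and it took between 0.0557% and 0.341% of a library's counts.

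The TMM-normalized level of miR-22-3p was 1205 CPM in control 1, 3938 CPM in control 2 and 714 CPM in control 3. It was 706 CPM in CIH 1, 643 CPM in CIH 2 and 731 CPM in CIH 3. Control 2 was the highest library, control 1 came next, and control 3 lay among the CIH libraries, so the groups overlapped. The exact binomial 95% intervals, which cover counting error only, were 1129 to 1284 CPM in control 1 and 3878 to 3999 CPM in control 2, both above those of the other 4 libraries. The intervals of control 3 (665 to 765 CPM), CIH 1 (660 to 754 CPM), CIH 2 (592 to 697 CPM) and CIH 3 (677 to 788 CPM) overlapped one another. The place of control 1 depended on the scaling. With library totals in place of TMM, control 1 was at 693 CPM, below control 3 (999 CPM), CIH 2 (807 CPM) and CIH 3 (1058 CPM). CIH 1 was then at 557 CPM and control 2, still the highest, at 3412 CPM.

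In control 2 the level of miR-22-3p was 5.52-fold the median of the other 5 libraries. By this measure 35 of the 607 miRNAs with a value (5.77%) reached at least as high in control 2, and control 2 was the highest library for 163 of the 633 miRNAs tested (25.8%). In control 1 miR-22-3p was 1.69-fold the median of the other 5, and both folds are after TMM. The SD of miR-22-3p as a percent of its mean, the coefficient of variation, was 89.0% among the controls, where counting error alone gives 2.82%, and 6.55% among the CIH libraries, where it gives 3.79%. The medians of this coefficient over the 395 miRNAs whose mean level reached 10 CPM were 84.2% for the controls and 27.6% for CIH. These coefficients are after TMM. With library totals in its place, miR-22-3p was at 1702 ± 1489 CPM (SD, n = 3) for the controls and 807 ± 251 CPM (SD, n = 3) for CIH.

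miR-22-5p was counted far less often, with 18, 149 and 32 counts in controls 1, 2 and 3 and 24, 26 and 27 counts in CIH 1, 2 and 3. It ranked between 216 and 326 among the 707 miRNAs. Its normalized level was 22.9, 35.9 and 28.8 CPM in controls 1, 2 and 3, and 19.3, 28.1 and 29.3 CPM in CIH 1, 2 and 3. The lowest and the highest values, in CIH 1 and control 2, were the only ones outside the range of the other group, and the groups overlapped.

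The exact 95% intervals of miR-22-5p were wide, such as 13.6 to 36.2 CPM in control 1 and 12.3 to 28.7 CPM in CIH 1, and only that of control 2 (30.4 to 42.2 CPM) did not overlap that of CIH 1. The coefficient of variation of miR-22-5p was 22.3% among the controls and 21.4% among the CIH libraries, against 17.7% and 19.8% from counting error alone. After TMM, most of the spread of miR-22-5p was thus of the size that counting gives, and control 2 was 1.28-fold the median of the other 5 libraries. The spread was larger with library totals in place of TMM. The levels were then 28.2 ± 13.8 CPM (SD, n = 3) for the controls and 31.0 ± 14.1 CPM (SD, n = 3) for CIH.

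**Figure D1:**
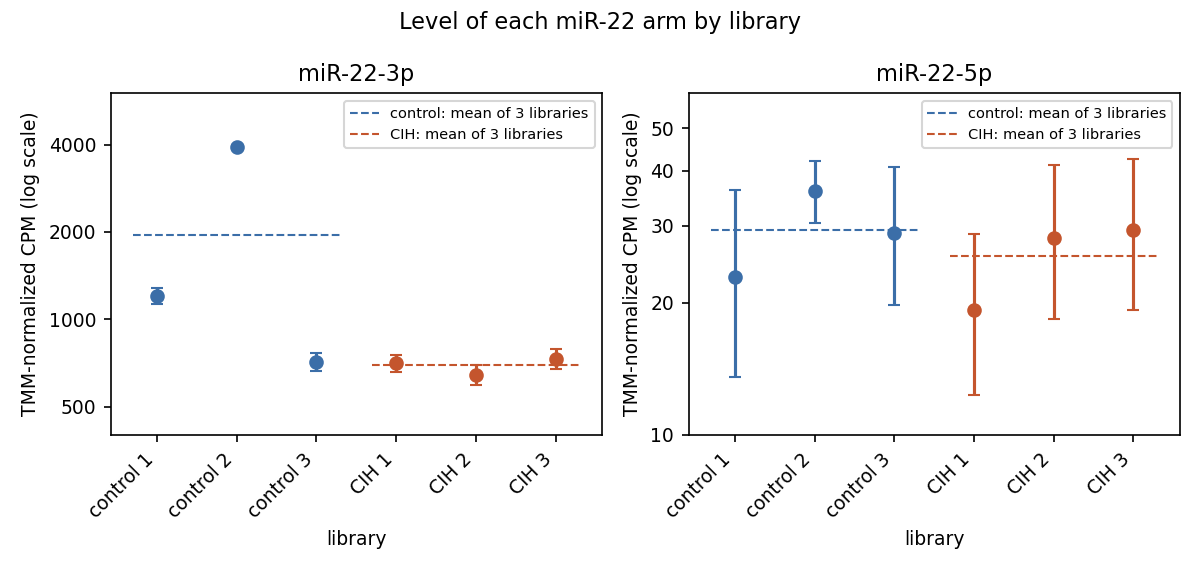
TMM-normalized CPM on a log axis for miR-22-3p (left) and miR-22-5p (right) in each library, with exact binomial 95% intervals as bars and the mean of 3 libraries per group as dashed lines. For miR-22-3p, control 2 (3938 CPM) and control 1 (1205 CPM) lie above the other 4 libraries, which lie between 643 and 731 CPM, and for miR-22-5p all libraries lie between 19.3 and 35.9 CPM.

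To ask whether CIH changed either arm, the 633 miRNAs with at least 10 counts over the 6 libraries were fitted together with edgeR's quasi-likelihood test. The mean level of miR-22-3p was 1952 ± 1737 CPM (SD, n = 3) for the controls and 693 ± 45.4 CPM (SD, n = 3) for CIH. Its log2 fold change was -1.49 (standard error 0.80, 95% interval -3.41 to 0.42), with an adjusted p of 0.882 by edgeR's quasi-likelihood test. The difference did not exceed the spread between libraries, and the interval runs from a large decrease to a small increase. The mean level of miR-22-5p was 29.2 ± 6.53 CPM (SD, n = 3) for the controls and 25.6 ± 5.47 CPM (SD, n = 3) for CIH. Its log2 fold change was -0.20 (standard error 0.54, 95% interval -1.49 to 1.09, adjusted p = 0.905 by the same edgeR test).

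Over all 633 miRNAs the median log2 fold change was 0.07, and 14.2% of them had a lower value than miR-22-3p and 41.2% a lower value than miR-22-5p. With an unadjusted p-value under 0.05, the significance level of the study, and a change of at least 1.5-fold, a limit chosen here because the paper's text gives none, 0 of the 2 arms were called, beside 16 of the 633 miRNAs tested (2.53%). After adjustment edgeR's quasi-likelihood test called 0 miRNAs (0%), as DESeq2 did, and 16 had an unadjusted p-value under 0.05. The groups did not overlap for 51 miRNAs (8.06%), and neither arm of miR-22 was among them. In tissue RNA, fewer cells of a type and less miRNA per cell cannot be told apart.

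**Figure D2:**
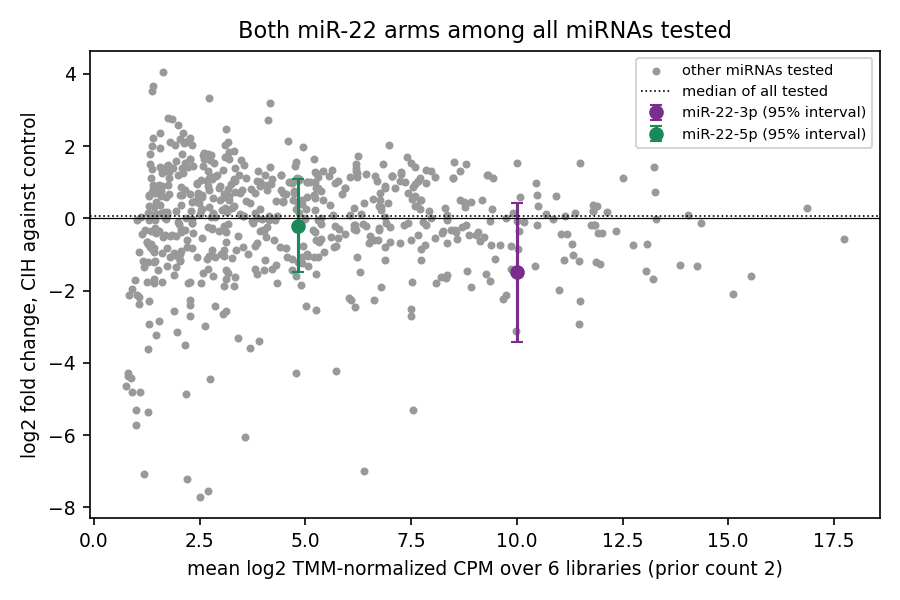
Log2 fold change of CIH against control from edgeR (vertical axis) against the mean log2 TMM-normalized CPM over the 6 libraries (horizontal axis) for the 633 miRNAs tested (grey), with 95% intervals for the miR-22 arms. Both intervals, from -3.41 to 0.42 for miR-22-3p and from -1.49 to 1.09 for miR-22-5p, include 0, and the dotted line is the median of all tested, 0.07.

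The fold change of miR-22-3p rested on control 2. Without control 2 it was -0.39 (standard error 0.51, adjusted p = 0.968 by edgeR's quasi-likelihood test), where the median of all miRNAs tested was 0.29. Without control 3, which lies with the CIH libraries, it was -1.91 (standard error 0.60), with an unadjusted p of 0.0197 and an adjusted p of 0.0760 by the same edgeR test. In the lower direction 75 of the 614 miRNAs tested there (12.2%), miR-22-3p among them, met the criteria of unadjusted p and fold change. In the higher direction 150 met them. An adjusted p-value under 0.05 was reached there by 118 miRNAs (19.2%), of which 102 were higher in CIH, and miR-22-3p was not among them. Without control 1 the log2 fold change of miR-22-3p was -1.76 (standard error 0.86, adjusted p = 0.942 by the same edgeR test). For miR-22-5p the log2 fold change was 0.052 without control 2, -0.24 without control 3 and -0.32 without control 1.

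Scaling moved both arms together with all other miRNAs. With library totals in place of TMM, the median of all miRNAs tested was 0.33, and the log2 fold changes were -1.08 for miR-22-3p and 0.13 for miR-22-5p, which lie 1.40 and 0.20 below that median. With upper-quartile factors the median was -0.52, and they were -2.28 and -0.83, which lie 1.77 and 0.32 below it. With TMM they lie 1.57 and 0.27 below the median, so that library totals changed the sign of miR-22-5p but not its side of the median.

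**Figure D3:**
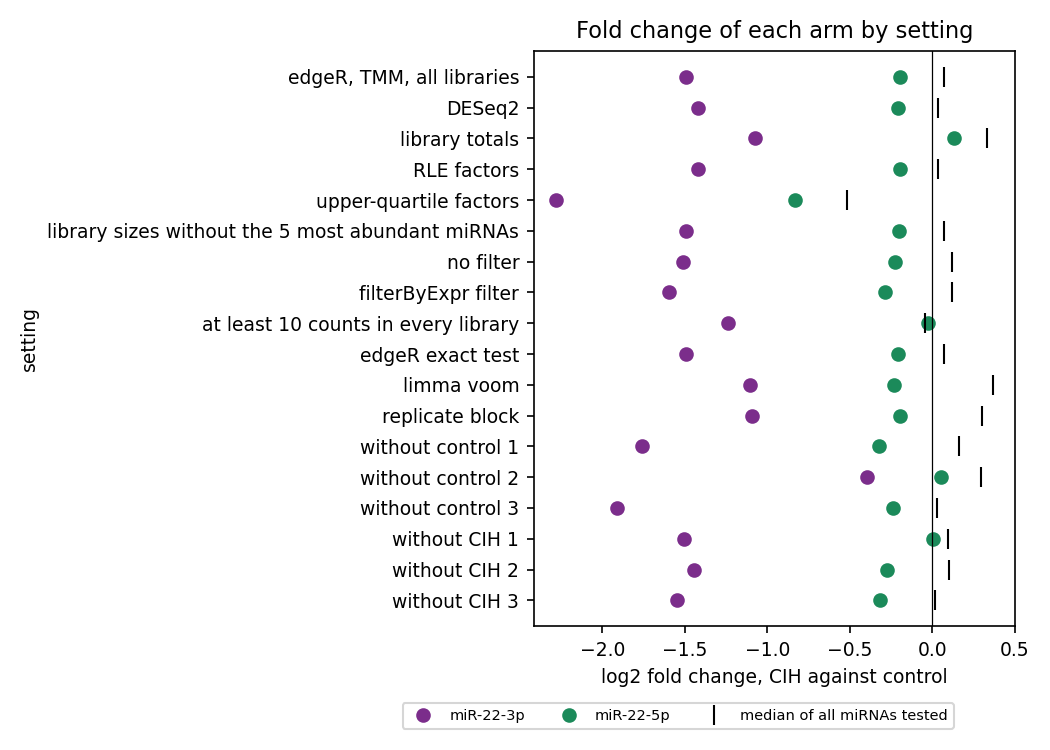
Log2 fold change of CIH against control (horizontal axis) for miR-22-3p and miR-22-5p under each setting (vertical axis), with the median of all miRNAs tested as a black tick. miR-22-3p lies between -2.28 and -0.39 and miR-22-5p between -0.83 and 0.13.

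The arm ratio was compared next, since the ratio of 2 counts of the same library needs no normalization between libraries. The arms have the same length, so no length correction was made, but adapter ligation can favour particular ends, and the absolute ratio carries that. The files do not pair the arms of other hairpins, so the ratio of miR-22 was not set beside those. The 3p arm had 52.6 counts for each 5p count in control 1, 110 in control 2 and 24.8 in control 3. It had 36.6 in CIH 1, 22.9 in CIH 2 and 25.0 in CIH 3. Control 2 was the most 3p-biased library and CIH 2 the least, and control 3 lay within the range of the CIH libraries.

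As a share of the miR-22 counts, the 5p arm took 1.87% in control 1 (exact Clopper-Pearson 95% interval 1.11 to 2.93%), 0.905% in control 2 (0.766 to 1.06%) and 3.88% in control 3 (2.67 to 5.44%). It took 2.66% in CIH 1 (1.71 to 3.93%), 4.19% in CIH 2 (2.75 to 6.07%) and 3.85% in CIH 3 (2.55 to 5.55%). The interval of control 2 lay below those of all 5 other libraries, including control 1.

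**Figure D4:**
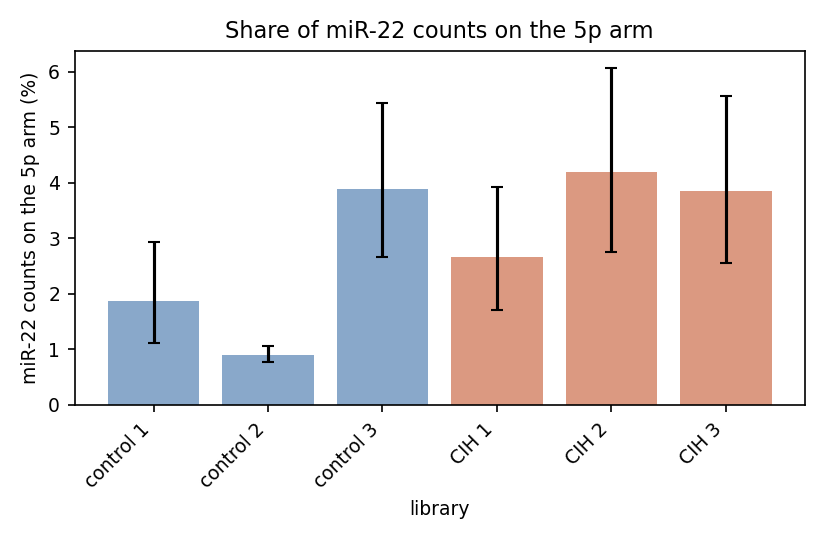
Percent of miR-22 counts that fell on the 5p arm in each library, with exact Clopper-Pearson 95% intervals, in control (blue) and CIH (orange) libraries. Control 2 has the smallest share, 0.905%, and control 3 (3.88%) lies with the CIH libraries, which run from 2.66% to 4.19%.

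The mean log2 ratio of 3p to 5p, with 0.5 counts added to each arm, was 5.69 ± 1.08 (SD, n = 3) for the controls and 4.76 ± 0.36 (SD, n = 3) for CIH. The difference of -0.93 was matched or exceeded in size by 30% of the ways to relabel the libraries (two-sided exact permutation test, p = 0.3, smallest p that 3 libraries against 3 allow in this test = 0.1). Without control 2 the difference was -0.39 (exact permutation test, p = 0.6), and without control 3 it was -1.47 (exact permutation test, p = 0.1, the smallest possible).

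The arm share did differ between single libraries of the same group. Of the 15 pairs of libraries, 8 had an adjusted p-value under 0.05 by Fisher's exact test on the arm counts, and these 8 were all 5 pairs with control 2 and the 3 pairs of control 1 with control 3, CIH 2 and CIH 3. Control 3 had 4.29 times the 5p share of control 2 (Fisher's exact test, adjusted p = 1.71e-09), and control 1 had a larger share than control 2 (adjusted p = 0.0179 by the same exact test). Among control 3 and the CIH libraries 0 of the 6 pairs passed, with adjusted p-values from 0.181 to 1. These tests compare libraries and not conditions, and PCR copies of a molecule count as separate reads in them. The libraries with a small 5p share, control 1 and control 2, were also those that stood apart over all miRNAs. The part of that difference in the arm ratio was not tested.

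The pattern of each arm over the 6 libraries was set beside those of the other 237 miRNAs that reached 10 counts in each of the 6 libraries, by the Pearson correlation of log2 levels. This is a description over 6 points that share library depth and composition. For miR-22-3p the median correlation was 0.28, and 25 miRNAs exceeded 0.9. The most similar were MIMAT0000146 (0.975) and MIMAT0000559 (0.974), and the normalized levels of both were highest in control 2, as for miR-22-3p. For miR-22-5p only MIMAT0000135 exceeded 0.9, with 0.924, and MIMAT0000132 came next with 0.838. The arms of miR-22 correlated with each other at 0.55. By this measure 90 miRNAs were more like miR-22-3p than its own 5p arm was. Likewise 28 were more like miR-22-5p than its 3p arm was. After TMM, most of the spread of miR-22-5p was of the size that counting gives, which limits any correlation with it.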

How the data were processed

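The authors deposited raw read counts of 707 mature miRNAs in 6 WAT libraries, without normalization. The aligner, genome build, miRBase release and treatment of ambiguous reads are not given in the sources used here, and such choices could move reads between similar miRNAs. Libraries totalled 636963 to 4783768 counts and were grouped by their titles. The miR-22 arms and all lists were chosen with earlier results of these data known. All 633 miRNAs with at least 10 summed counts were tested with edgeR 4.0.16 (TMM, quasi-likelihood, group only, Benjamini-Hochberg adjustment) in R 4.3.3, after a check on simulated counts. The limits on recovery and false calls in that check were set only for counts less variable than those of the miR-22 arms. Alternatives used DESeq2 1.42.0 and limma 3.58.1. Log2 levels used a prior count of 2. Arm ratios, exact tests and intervals used Python 3.11.15 with scipy 1.17.1, and folding used RNAfold 2.7.2. Sequences are from RefSeq (GRCm38.p6), in which both arms were found. The rule for the miRNAs named took both arms and the 5 miRNAs most similar to each in pattern, of which 2 each are printed. It also took miRNAs of the same seed, hairpins of the nearest arm ratio, and lists of lipid-metabolism, adipocyte and cell-type miRNAs. The lists and the arm ratios of other hairpins were not analysed here, since no file links accessions to names.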

Additional observations from a re-analysis of the deposited data

How the results depend on the processing

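Under the 17 alternatives to the edgeR fit, the log2 fold change of miR-22-3p was negative in all and that of miR-22-5p in 14, and neither arm had an adjusted p-value under 0.05 in any. That of miR-22-5p was positive with library totals (0.13), which raised the median of all miRNAs tested to 0.33. It was also positive without control 2 (0.052) and without CIH 1 (0.0021), the libraries highest and lowest in miR-22-5p after TMM. By library totals CIH 3 was the highest (42.4 CPM) and control 1 the lowest (13.2 CPM). The median of all miRNAs tested was 0.29 without control 2 and 0.09 without CIH 1. What moved the sign was not tested. With each library left out in turn, miR-22-3p ran from -1.91 to -0.39, miR-22-5p from -0.32 to 0.052, and the arm ratio difference from -1.47 to -0.39. With 5 counts added to each arm that difference was -0.97 (exact permutation test, p = 0.2), and as percent on the 5p arm it was 1.35 percentage points higher in CIH (exact permutation test, p = 0.3). The number of miRNAs that met the criteria of unadjusted p and fold change, 16 in the original fit, was 26 with DESeq2, 39 with upper-quartile factors, 29 with edgeR's exact test, 75 with limma voom and 8 with the filterByExpr filter, which tests 407 miRNAs. It ran from 1 (without CIH 3) to 225 (without control 3) with each library left out, with 6 without CIH 1 and 6 without CIH 2. The number with an adjusted p-value under 0.05 ran from 0 to 118 (without control 3). With at least 10 counts in every library, 238 miRNAs were tested and 11 met the criteria of unadjusted p and fold change. Why these numbers changed was not tested. Same-numbered libraries deviated together at 0.353 for replicate 1, -0.116 for replicate 2 and 0.0195 for replicate 3. These values cannot decide whether the numbers mark pairs, since each rests on a single library of each group. The titles state no pairing. With the replicate block 3 miRNAs met the criteria, the log2 fold changes were -1.09 for miR-22-3p and -0.19 for miR-22-5p, and the paired arm ratio difference was -0.93 (exact sign-flip permutation test, p = 0.5). Counts of 18 to 32 in 5 of the 6 libraries limit the precision of miR-22-5p.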
